A study of Mus musculus with 4 samples.

Results

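ADAM proteases (a disintegrin and metalloproteinase) and ADAMTS proteases (the same with thrombospondin motifs) were followed in mouse fibroblasts that carry an Erbb2 transgene. The genes described are Adam8, Adam10, Adam12, Adam15, Adam17, Adam19 and Adamts1, chosen by their symbols in the platform annotation. They are 7 of the 8131 genes that had a ratio on at least 3 of 4 arrays. NIH3T3 cells are an established fibroblast line from mouse embryos, and RNA of Erbb2-transfected NIH3T3 cells was hybridised against RNA of untransfected NIH3T3 cells with normal Erbb2 expression. RNA of the transfected line was in the Cy5 channel for arrays 1 and 2 and in the Cy3 channel for arrays 3 and 4. The series describes the arrays as technical replicates, so there was 1 sample per line, and errors and p-values cover the spread between hybridisations only. The labels name neither the promoter of the transgene nor whether the transfected line is a single clone.

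Membrane-bound ADAMs cut the outer part of other membrane proteins from the cell surface, a step called shedding. Their substrates include the precursors of most ligands of the epidermal growth factor receptor (ERBB) family, which become soluble in this way, as well as Notch receptors, cadherins and adhesion molecules. ADAMs are made with an inhibitory prodomain, and their extracellular part also holds a disintegrin domain that can bind integrins. ADAMTS proteases are secreted and cleave matrix proteins such as the large proteoglycans versican and aggrecan. Tissue inhibitors of metalloproteinases (TIMPs) block members of both groups.

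Values are log2 ratios, likely of transfected over untransfected cells, so that a value above 0 means more RNA in the transfected line. The deposited file does not state the direction, and all signs below would turn together if it were the other way. The ratios are differences between both lines and do not give the level of any gene. Array coverage ran between 76.8% and 94.6% of 20355 spots, and array medians over the tested genes were 0.10, 0.02, -0.17 and -0.20 on arrays 1 to 4. Across the 6327 genes with 4 values, the ratios of 2 arrays correlated weakly (Pearson's r between 0.12 and 0.20; genes are not independent replicates). There were 0 probes named for Erbb2, so the transfected gene itself was not checked here. Each of the 7 genes had 1 probe, and all these probes lie in the part of the table in which the columns line up as deposited. A marker or list gene is called measured, here and below, if it had a ratio on at least 3 arrays. Of the fibroblast markers 6 of 8 were measured, 3 with a mean above 0 and 3 below. Col1a1 (-4.91 ± 1.46) and Col1a2 (-3.36 ± 0.69) lay far below 0, and Fap was at -0.36 ± 0.25. Vim was at 0.66 ± 0.18, Pdgfra at 0.45 ± 1.85 and S100a4 at 0.24 ± 0.80 (SD, n = 4 arrays each). A ratio cannot show whether a marker was expressed.

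Over the whole table limma called 0 of 8131 genes at a Benjamini-Hochberg adjusted p under 0.05 (0%), with 786 genes (9.67%) at an unadjusted p under 0.05. No ADAM or ADAMTS gene was therefore called. At the unadjusted level, limma placed 2 of the 7 genes on the higher side (Adam8 and Adam19), where 3.21% of all genes lay, and 1 on the lower side (Adamts1), where 6.46% of all genes lay. The genes were selected with earlier results of these data known, so these shares are a description. Adam8 and Adam19 were above 0 on every array on which they were measured, as were 9.81% of all genes, and Adamts1 was below 0 on every array, as were 13.6% of all genes. Adam10, Adam12, Adam15 and Adam17 had mixed signs.

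**Figure D1:**
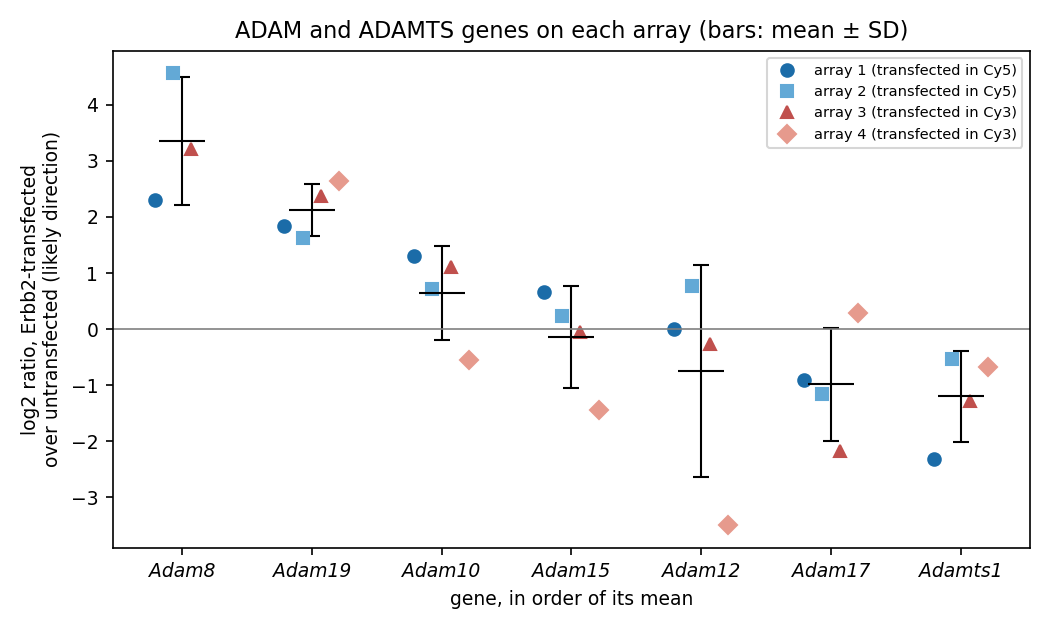
Log2 ratio (likely transfected over untransfected) of each ADAM and ADAMTS gene on each of the 4 arrays, ordered by the mean, with colours and shapes for the arrays and bars for mean ± SD. All points of Adam8 and Adam19 lie above 0 and all points of Adamts1 below it, while Adam12 spreads between 0.78 and -3.50; Adam8 has no value on array 4.

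Adam19, also known as meltrin beta, is a membrane-bound protease that can process neuregulins, ligands of ERBB receptors. It had log2 ratios of 1.85 and 1.63 with the transfected sample in Cy5 (arrays 1 and 2) and 2.38 and 2.65 with it in Cy3 (arrays 3 and 4). All 4 arrays lay well above 0, and both dye orientations gave the same side. The mean was 2.13 ± 0.47 (SD, n = 4 arrays), a 4.36-fold higher ratio, and 2.19 ± 0.61 after each array was centred on its median. Limma gave an unadjusted p of 0.00083 and an adjusted p of 0.292. Its adjusted p ran between 0.161 and 0.788 under the 13 other settings in which single genes were read. Of the 8131 genes, 24 had a higher mean. Of the 6327 genes with 4 values, 5, Adam19 included, had no array below its lowest value of 1.63. Within single arrays its ratio exceeded those of 98.3%, 91.8%, 96.6% and 99.0% of the tested genes on arrays 1 to 4.

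Adam8 encodes a membrane-bound protease known mainly from leukocytes and osteoclasts, which removes its own prodomain by autocatalysis. Its log2 ratios were 2.30 and 4.56 with the transfected sample in Cy5 and 3.21 with it in Cy3 on array 3, and array 4 held no value. Each of the 3 values was far above 0, but they differed among themselves by more than 2 units. The mean was 3.36 ± 1.14 (SD, n = 3 arrays), a 10.3-fold higher ratio, and 2 genes in the table had a higher mean. The limma estimate, which weighs both dye orientations equally and rests here on 3 arrays, was 3.32 (unadjusted p = 0.0059, adjusted p = 0.446). The limma adjusted p lay between 0.179 and 0.653 under those of the 13 other settings that gave one. Leaving out array 1, 2 or 3, or keeping only genes with 4 values, gave no p for Adam8. On arrays 1 to 3 its ratio exceeded those of 99.0%, 99.6% and 98.5% of the tested genes. Macrophage and other leukocyte markers were measured for 4 of 10 genes, with Lyz2 at -1.17 ± 0.70 and below 0 on every array, Cd68 at -0.22 ± 0.39, Tyrobp at -0.24 ± 0.50 on 3 arrays, and the T cell gene Cd3e at 0.78 ± 2.38. Of these 4 markers 0 were above 0 on every array measured, against 9.81% of all genes, so that this count says little for so few markers, and their part in the ratio of Adam8 was not tested.

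**Figure D2:**
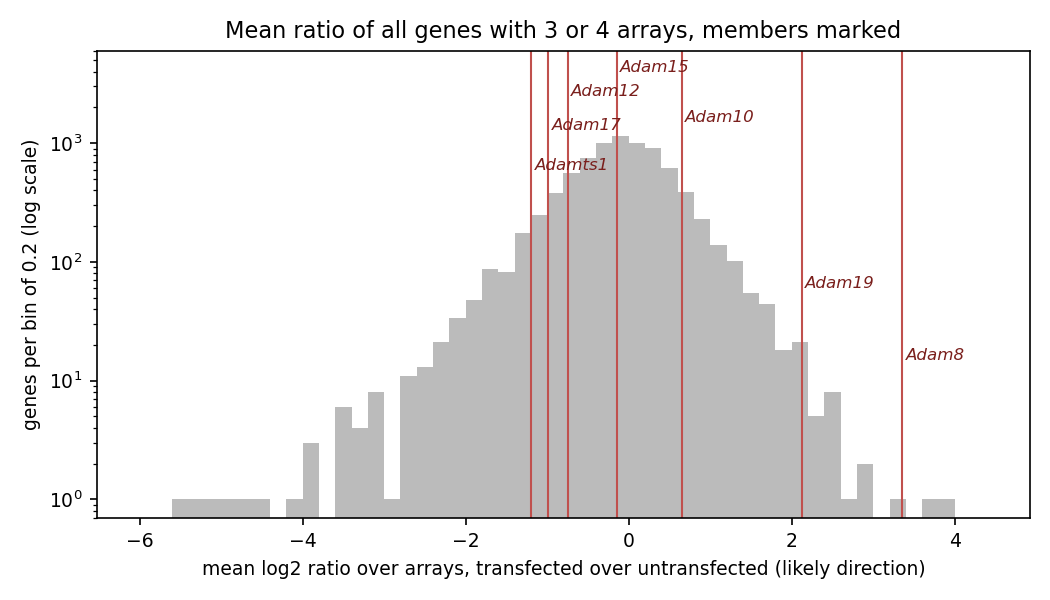
Histogram of the mean log2 ratio (likely transfected over untransfected) of 8131 genes in bins of 0.2, with the number of genes on a log scale and a line at the mean of each ADAM and ADAMTS gene. Adam8 (3.36) and Adam19 (2.13) stand in the thin upper end, and the other 5 genes lie within the bulk between -1.20 and 0.65.

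Adamts1, a secreted protease that cleaves versican and aggrecan, was the lowest of the 7 genes. It had -2.31 and -0.53 on arrays 1 and 2 and -1.28 and -0.67 on arrays 3 and 4. All 4 values were below 0, with array 1 the lowest and arrays 2 and 4 near one another. The mean of -1.20 ± 0.81 (SD, n = 4 arrays) is a 2.29-fold lower ratio. Limma gave an unadjusted p of 0.035 and an adjusted p of 0.492 (between 0.328 and 0.897 under the same 13 other settings). Of all genes, 502 had a lower mean.

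The promoters of the 3 genes with 1 sign on every array measured are shown for the bases just before the transcription start, as tabled by RefSeq for build GRCm38.p6. Of the 7 symbols, 6 matched that table (all but Adam12), with 8 windows in all. Capitals mark matches, on either strand, to TGANTCA (the site of AP-1, a transcription factor downstream of ERBB signalling), GGGCGG (GC box), CCGGAAG (ETS factors) or CACGTG (E-box). Adam19 has 3 tabled starts, and the window printed is that of the second, chr11:46055734-46055983 on the plus strand, because it is the only one of these 8 windows with an AP-1 match. The Adam8 window is chr7:139992563-139992812 and that of Adamts1 chr16:85803114-85803363, both on the minus strand.
Adam19: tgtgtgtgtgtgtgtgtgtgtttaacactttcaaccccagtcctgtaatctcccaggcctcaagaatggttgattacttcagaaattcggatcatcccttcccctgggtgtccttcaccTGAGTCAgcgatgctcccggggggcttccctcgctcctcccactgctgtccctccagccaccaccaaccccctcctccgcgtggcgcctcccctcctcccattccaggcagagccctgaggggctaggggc
Adam8: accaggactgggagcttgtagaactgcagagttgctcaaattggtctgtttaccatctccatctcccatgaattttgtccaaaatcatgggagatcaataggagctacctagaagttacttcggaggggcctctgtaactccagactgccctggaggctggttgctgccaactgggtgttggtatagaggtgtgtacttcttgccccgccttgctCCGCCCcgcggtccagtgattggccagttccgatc
Adamts1: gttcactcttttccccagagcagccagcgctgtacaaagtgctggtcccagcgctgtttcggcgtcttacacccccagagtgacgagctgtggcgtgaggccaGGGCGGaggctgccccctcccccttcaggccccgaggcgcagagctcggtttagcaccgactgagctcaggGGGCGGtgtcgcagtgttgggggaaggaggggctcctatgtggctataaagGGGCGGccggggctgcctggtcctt
Each window spans 250 bases and ends at the base before the start. TGANTCA lies 131 bases before the second start of Adam19, and 6.75% of 32851 such windows hold this motif. Counted by gene, as fits a gene with 3 starts, 7.82% of 27025 genes have it in at least 1 window. GGGCGG occurs 3 times each before Adamts1 and Adam10 and 1 time each before Adam8, Adam15 and Adam17, and 32.7% of all windows hold it. CCGGAAG occurs in the windows of Adam15 and Adam17 (6.91% of all windows) and CACGTG in those of Adam10 and the first start of Adam19 (6.02%). GC content was 60% in the printed window of Adam19, 52.8% in that of Adam8 and 65.6% in that of Adamts1. A match of letters is a description of the window and was not tied to the ratios by any test.

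The main sheddases of ERBB ligands, Adam10 and Adam17, lay on different sides of 0, with 1 array each on the other side. Adam10, which sheds betacellulin and epidermal growth factor and cuts Notch receptors, had 1.31, 0.72 and 1.11 on arrays 1 to 3 and -0.55 on array 4. Its mean was 0.65 ± 0.83 (SD, n = 4 arrays; limma, adjusted p = 0.624), and the SD exceeded the mean. Without array 4 the mean was 1.05, and without array 1 it was 0.43. Adam17, the tumour necrosis factor converting enzyme, which also sheds transforming growth factor alpha, amphiregulin and heparin-binding EGF-like growth factor, had -0.90, -1.15 and -2.17 on arrays 1 to 3 and 0.28 on array 4. Its mean was -0.98 ± 1.005 (SD, n = 4 arrays; limma, adjusted p = 0.562), -1.41 without array 4 and -0.59 without array 3. Array 4 was thus on the other side of 0 from the remaining arrays for both genes.

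Adam12 and Adam15 changed sign with 1 array. Adam12, also known as meltrin alpha, which can shed heparin-binding EGF-like growth factor, had 0.00 and 0.78 on arrays 1 and 2, -0.26 on array 3 and -3.50 on array 4. Its mean was -0.74 ± 1.89 (SD, n = 4 arrays; limma, adjusted p = 0.70), and 0.17 without array 4. Its orientation means were 0.39 with the transfected sample in Cy5 and -1.88 with it in Cy3. Adam15, whose product joins protease and integrin-binding functions, had 0.66 and 0.23 on arrays 1 and 2 and -0.04 and -1.44 on arrays 3 and 4. Its mean was -0.15 ± 0.91 (SD, n = 4 arrays; limma, adjusted p = 0.906), and 0.28 without array 4. Its orientation means were 0.45 in Cy5 and -0.74 in Cy3. For neither gene did the mean exceed its SD.

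**Figure D3:**
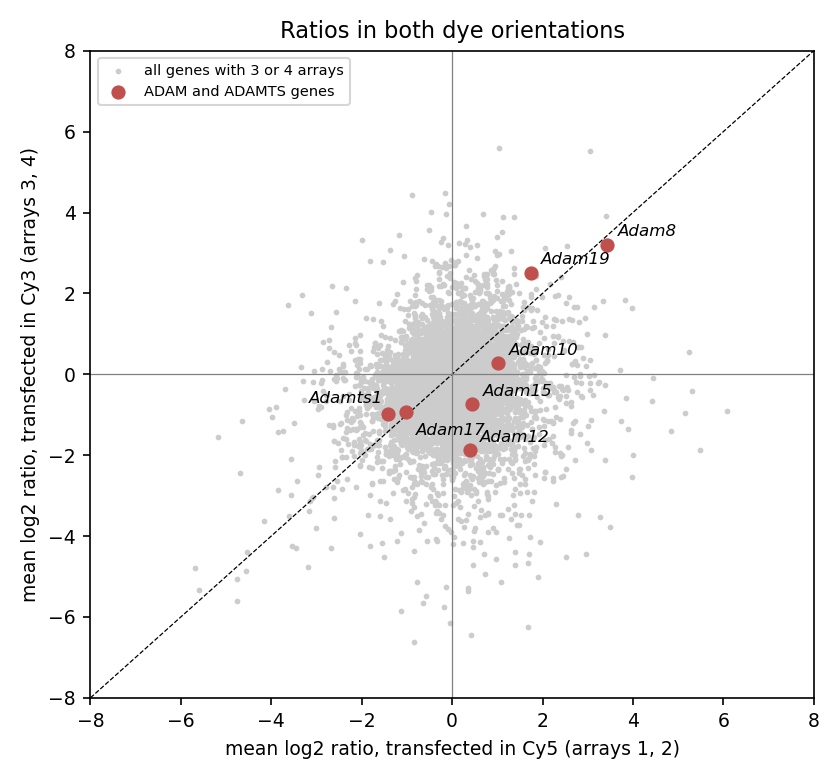
Mean log2 ratio of each gene with the transfected sample in Cy5 (horizontal axis, arrays 1 and 2) and in Cy3 (vertical axis, arrays 3 and 4; array 3 alone for Adam8), grey for all genes with 3 or 4 arrays, red for the ADAM and ADAMTS genes, and a dashed line where both orientations are equal. Adam8, Adam17 and Adamts1 lie near the dashed line, Adam19 lies above it with 1.74 and 2.51, and Adam12 and Adam15 fall in the quadrant where the orientations have opposite signs.

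The dye orientations gave close means for 3 genes. Adam8 had 3.43 in Cy5 and 3.21 in Cy3, Adam17 had -1.03 and -0.94, and Adamts1 had -1.42 and -0.97. These are means of arrays that differed within an orientation. Adam17 had -2.17 and 0.28 in Cy3, Adam8 had 2.30 and 4.56 in Cy5, and Adamts1 had -2.31 and -0.53 in Cy5. Adam19 was lower in Cy5 (1.74) than in Cy3 (2.51), and Adam10 was higher in Cy5 (1.02) than in Cy3 (0.28). Among the 4 arrays, array 4 held the lowest value of Adam10, Adam12 and Adam15 and the highest of Adam17 and Adam19.

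Ordered by their means, the genes ran Adam8, Adam19, Adam10, Adam15, Adam12, Adam17 and Adamts1. The 6 pairs of neighbours in this order were compared array by array, with an exact two-sided sign-flip permutation test. Its smallest p is 0.125 with 4 arrays and 0.25 with 3, so that p under 0.05 could not be reached. The order came from these same values, so the side of each mean difference was fixed in advance. Where all differences of a pair share a sign, p is the smallest possible whatever their spread. The p-values therefore give no support for the order. Adam10 exceeded Adam15 by 0.80 ± 0.29 (SD, n = 4 arrays), on every array and by between 0.49 and 1.16 (exact p = 0.125, adjusted p = 0.375 over the 6 pairs). Adam19 exceeded Adam10 by 1.48 ± 1.18, also on every array (exact p = 0.125, adjusted p = 0.375, n = 4 arrays). Adam8 exceeded Adam19 by 1.41 ± 1.34 on the 3 shared arrays (exact p = 0.25, adjusted p = 0.50). For the remaining neighbours the mean difference was smaller than its SD. It was 0.60 ± 1.09 for Adam15 minus Adam12, 0.24 ± 2.72 for Adam12 minus Adam17 and 0.21 ± 1.14 for Adam17 minus Adamts1. These are differences between ratios, not between levels.

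Genes with the most similar values were sought by the smallest Euclidean distance over the 4 log2 ratios, among the other 6326 genes with 4 values. For Adam19 this was Gpnmb, which encodes a transmembrane glycoprotein, with 2.18, 2.16, 1.84 and 2.63 on arrays 1 to 4 (distance 0.833). The nearest genes were Lrrc75b for Adam10 (distance 0.323), Wdr53 for Adam12 (0.296), Rps27l for Adam15 (0.268), Decr1 for Adam17 (0.428) and Foxred2 for Adamts1 (0.494). The distance of Adam19 was the largest of these 6. For Adam10, Adam15 and Adamts1 the second nearest gene was almost as close (0.336, 0.295 and 0.497). Lrrc75b averages a probe at 1.38 in the first rows and 1 at 0.05 in the moved rows. The probe of Rps27l also lies in the moved rows, which are described with the processing.

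The platform names 28 genes whose symbol begins with Adam, and 24 of them had at least 3 values. Among the 17 not described so far, which include Adamdec1 and the ADAMTS-like genes (Adamtsl, without a protease domain), limma called 0, and 1, Adam11, had an unadjusted p under 0.05. Adam11, a catalytically inactive member expressed in brain, had -1.33, -1.19 and -0.90 on arrays 1, 3 and 4, with a mean of -1.14 ± 0.22 (SD, n = 3 arrays; limma, adjusted p = 0.511). Means above 0 belonged to Adamts7 (0.85 ± 1.90), Adam3 (0.76 ± 1.36), Adamts16 (0.71 ± 1.01), Adam1a (0.46 ± 0.47), Adam5 (0.44 ± 0.31), Adam30, Adamts10, Adam32, Adam33 and Adam7, the last 5 at 0.25 or less. Leaving out 1 array brought Adamts7 to 0.29 (without array 2), Adam3 to 0.09 (without array 4) and Adamts16 to 0.27 (without array 3). Of the genes with a mean above 0, only Adam1a and Adam5, both known from sperm, were above 0 on every array. Means below 0 belonged, beside Adam11, to Adam29 (-0.07 ± 0.59), Adamts17 (-0.36 ± 0.61), Adam18 (-0.54 ± 0.42), Adamtsl4 (-0.64 ± 1.11), Adamtsl2 (-0.92 ± 0.88) and Adamdec1 (-1.96 ± 2.92). Adamdec1 had -6.18 on array 3 and between -1.64 and 0.02 on the others. The median of the means was -0.15 over the 7 genes described above, 0.12 over these 17 and -0.09 over all genes. Adam8 had 3.36 and Adam19 2.13, while the highest mean among the 17 was 0.85. This rests on dropping ratios beyond 15. With those kept, the mean of Adam33 was 4.38, above that of Adam8.

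Genes that work with ADAMs were described by lists, none of whose members limma called. These lists hold several genes for which arrays 2 to 4 were read 3 or 4 rows higher in the table, as described with the processing, and each such gene rests on that step. Of 15 ERBB receptors and ligands 3 were measured, that is, had a ratio on at least 3 arrays. Nrg4, a neuregulin gene named after its values were seen, had 2.52 and 3.13 on arrays 1 and 2 and 0.01 on array 4. The mean was 1.89 ± 1.65 (SD, n = 3 arrays), and the dye-balanced limma estimate was 1.42 (adjusted p = 0.484). With the transfected sample in Cy3 only array 4 gave a value, so the excess of Nrg4 lay in the Cy5 orientation. Hbegf, which encodes heparin-binding EGF-like growth factor, had -0.95, 1.61, -0.26 and 1.73 (mean 0.53 ± 1.34, SD, n = 4 arrays), and its sign thus did not follow the dye. Egfr had 0.24, 1.48, -1.52 and -0.47 (mean -0.07 ± 1.26, SD, n = 4 arrays), while its probes in the first rows alone gave 0.94 and those in the moved rows -0.30.

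Among inhibitors, 4 of 6 genes were measured. Timp3, which encodes an inhibitor of ADAM10, ADAM17, ADAM12 and ADAMTS proteases, had -2.27, -4.09, -5.51 and -3.999 on arrays 1 to 4 (mean -3.97 ± 1.33, SD, n = 4 arrays; limma, unadjusted p = 0.00038, adjusted p = 0.255). All 4 values were far below 0. Timp1 was near 0 at 0.06 ± 0.24 and Timp4 at -0.22 ± 0.45 (SD, n = 4 arrays). Timp2, named after its values were seen, had 0.68, 1.31 and 1.01 on 3 arrays (mean 0.997 ± 0.32), but -0.55 with its rows as deposited.

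For trafficking and activation of ADAMs, 10 of 15 genes were measured, and 1 was above and 1 below 0 on every array. Tspan5, which encodes a tetraspanin that guides ADAM10 to the cell surface, had 0.32, 1.57, 1.75 and 0.59 (mean 1.06 ± 0.71, SD, n = 4 arrays; limma, unadjusted p = 0.045, adjusted p = 0.511). This averages a probe in the first rows (mean 0.59) and 1 in the moved rows (1.52). Limma on the first rows alone gave an unadjusted p of 0.346. The other tetraspanin genes measured were Tspan14 (-0.13 ± 0.55) and Tspan33 (-0.12 ± 2.51) on 4 arrays and Tspan17 (-0.67 ± 2.88) on 3. These had mixed signs. Rhbdf2, which encodes iRhom2, a factor in the maturation of ADAM17, had -0.34, -0.36, -3.22 and -0.56 (mean -1.12 ± 1.40). Array 3 was far from the others, and the mean without it was -0.42. Rhbdf1, also in this list, had 0.14 ± 0.31 on 3 arrays, with mixed signs. Furin, a proprotein convertase that removes ADAM prodomains, had -0.11 and -0.72 with the transfected sample in Cy5 and 1.68 and 1.90 with it in Cy3, so its sign followed the dye. Of 16 adaptors that bind ADAM tails 8 were measured, among them Snx18 (-1.67 ± 0.95) and Grb2 (-0.35 ± 0.38), the only measured ones below 0 on all 4 arrays. With rows as deposited these means were -0.30 and 0.34.

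**Figure D4:**
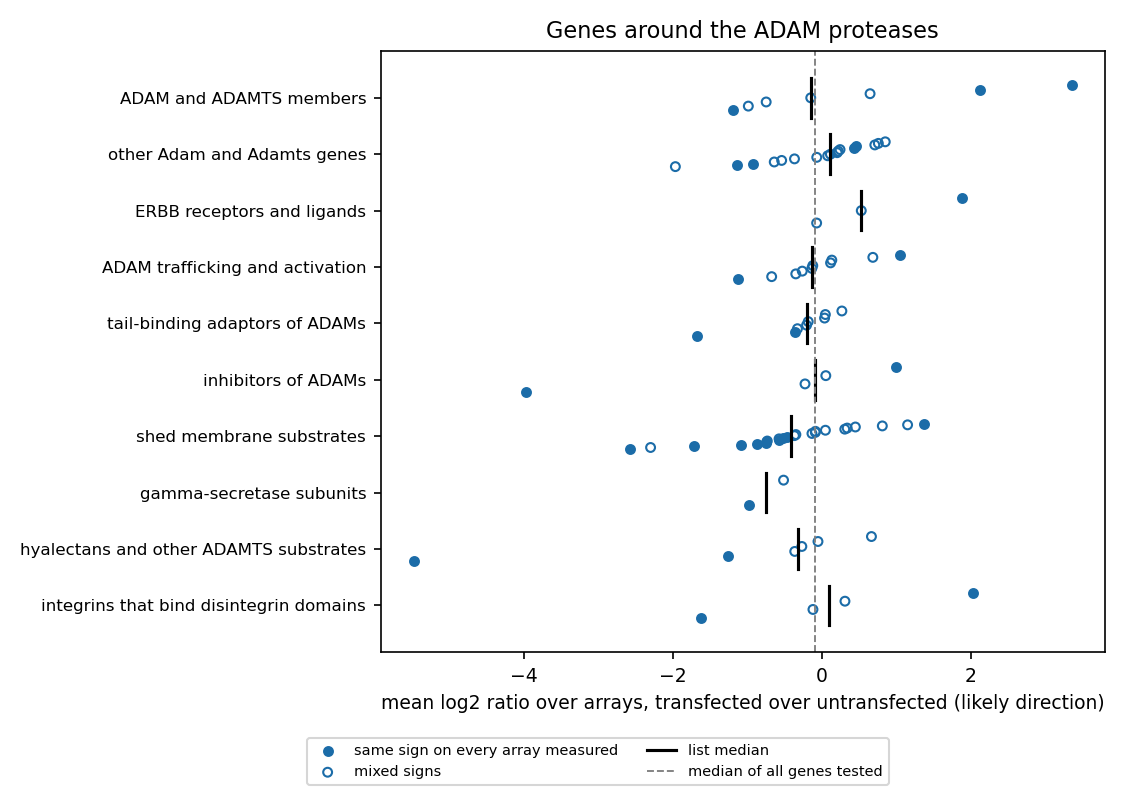
Mean log2 ratio over arrays (likely transfected over untransfected) of each measured gene of the ADAM and ADAMTS family and of the 8 lists around it (cell type markers are not drawn), with filled points for genes of 1 sign on every array measured, open points for mixed signs, a black bar at the list median and a dashed line at the median of all 8131 genes (-0.09). The 2 drawn genes furthest to the left are Bgn (-5.48) and Timp3 (-3.97), and Adam8 and Adam19 are the 2 furthest to the right.

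Shed membrane proteins formed the largest list, with 24 of 43 genes measured. Of these, 8 were below and 1 above 0 on every array measured (all genes, 13.6% and 9.81%), and the median of the list was -0.42 against -0.09 for all genes. App, which encodes the amyloid precursor protein, had -1.64, -5.83, -1.59 and -1.23 (mean -2.57 ± 2.18, SD, n = 4 arrays) and -1.49 without array 2. Vcam1, an adhesion molecule gene, had -1.02, -0.77, -3.71 and -1.36 (mean -1.72 ± 1.35, and -1.05 without array 3), and Prnp, the prion protein gene, had -1.09 ± 0.60 (SD, n = 4 arrays each), and -0.30 with its rows as deposited. Cd44, which encodes a hyaluronan receptor, was the gene above 0 on every array, with 0.49, 1.32, 1.52 and 2.15 (mean 1.37 ± 0.68, SD, n = 4 arrays; limma, unadjusted p = 0.0096, adjusted p = 0.446). Its single probe lies in the moved rows, and with rows as deposited its mean was -1.22.

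Smaller lists held few genes. Of 7 gamma-secretase subunits, which cut the stubs that shedding leaves, 2 were measured, Psen2 at -0.97 ± 1.20, below 0 on all arrays and at -0.38 without array 3, and Aph1a at -0.51 ± 2.73. Of 13 hyalectans and other ADAMTS substrates 6 were measured, with a median of -0.31. Acan, the aggrecan gene, had -0.48, -1.79 and -1.48 on arrays 1, 3 and 4 (mean -1.25 ± 0.69, SD, n = 3 arrays), and the proteoglycan gene Bgn had -5.48 ± 3.13 (SD, n = 4 arrays), and -2.56 with its rows as deposited. Of 9 integrins that bind disintegrin domains 4 were measured. Itgb1 stayed near 0 at -0.12 ± 0.12 and Itgb5 had -1.62 ± 1.34, below 0 on every array and -1.04 without array 3 (SD, n = 4 arrays each). Itgb7, named after its values were seen, had 3.58, 2.33 and 0.20 on arrays 1, 2 and 4 (mean 2.03 ± 1.71, SD, n = 3 arrays). Its orientation means were 2.95 in Cy5 and 0.20 in Cy3, and its limma estimate was 1.575.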

How the data were processed

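The deposited values are log2 ratios of the 2 channels plus a constant that differs by array; how the authors analysed images, corrected background and normalized is not given in the sources used here. Judged from the values, the scale is log2: the most frequent ones lie 1 unit apart, and the largest lie 16.61 from a 1:1 ratio. Those capped ratios, beyond 15 either way (63 to 121 per array), were dropped. They are positive on the first 2 arrays and negative on the others, so the sign of one dye orientation had been turned.

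Rows up to 6000 were used as they stand. Below, array 1 matched arrays 2 to 4 best when these were read 3 rows higher (mean r 0.081, against -0.0022 as deposited) and, at the end, 4 rows higher (0.149, against -0.0091), and they were read so; 2300 rows with an unclear offset were left out. Of 20355 probes, 14030 had 1 symbol (13994 matched by gene identifier to RefSeq, GRCm38.p6), 5 several and 6320 none here. Probes of a gene were averaged. Genes with at least 3 arrays were fitted with limma 3.58.1 in R 4.3.3 (mean and dye term), tested on simulated data, with Benjamini-Hochberg adjustment over 8131 genes. The number of arrays limits the precision. No build is named for the array, so probes have no coordinates.

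The 7 genes, the 8 lists around them and the 5 marker lists were chosen with earlier results of these data known. Named genes were the members, all other Adam and Adamts genes, per list up to 4 genes with 1 sign on 4 arrays and the largest means, Egfr and Hbegf, and the gene nearest to each member; other list genes given with values were chosen after these were seen. Part of the labels' protocol text speaks of organs and pooled animals and was not taken to describe these cells.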

Additional observations from a re-analysis of the deposited data

Results flagged for a closer look

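The check covered 74 genes with 4 values, taken from the 7 ADAM and ADAMTS genes, their relatives and all lists. Of these 74, 5 had 1 array far from the other 3. Chance gives about 5% of such groups, and many of these genes share arrays and dyes. None of the 5 was among the 7 genes, but Adam8, with 3 values, was not checked. Rhbdf2 had -3.22 on array 3 and between -0.56 and -0.34 elsewhere (gap over range 0.924). App had -5.83 on array 2 and between -1.64 and -1.23 elsewhere (0.912). Aplp2, which encodes a relative of the amyloid precursor protein, had -1.14 on array 2 and between -0.46 and -0.35 elsewhere (0.857). The endothelial marker Pecam1 had -1.34 on array 1 and between 0.25 and 0.52 elsewhere (0.856). Pacs2, a sorting protein gene, had -1.41 on array 3 and between -0.05 and 0.21 elsewhere (0.838). The causes were not tested.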

How the results depend on the processing

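Limma's count of 0 genes stayed at 0 under all 15 other settings, with a smallest adjusted p of 0.0609 (each probe on its own) and 355 (without array 2) to 1018 (each probe on its own) genes at an unadjusted p under 0.05, against 786. The 7 ADAM and ADAMTS genes kept their sign in 89 of 91 values, from 13 settings per gene. Values of single genes were not taken under limma's robust variance setting. The lower rows alone hold none of the probes of the 7 genes, and reading rows as deposited did not alter their ratios. Without any 1 array the means ran between 2.76 and 3.89 for Adam8, 1.95 and 2.29 for Adam19, 0.43 and 1.05 for Adam10, -1.41 and -0.59 for Adam17, and -1.42 and -0.82 for Adamts1; Adam12 (-1.25 to 0.17) and Adam15 (-0.42 to 0.28) turned. Of the 40 other named genes, 26 have a probe in the moved rows. Reading rows as deposited also takes back the 2300 rows left out, and Adamtsl4 turned without a probe in the moved rows. With rows as deposited the means of Adam18 (0.90), Adam1a (-0.32), Adam29 (0.33), Adamts10 (-1.15), Adamtsl2 (0.48), Adamtsl4 (0.065), Cd44 (-1.22), Timp2 (-0.55), Grb2 (0.34), Egfr (0.12) and Rps27l (0.44) turned. Egfr turned in the first rows alone (0.94) and with the median over probes (0.20), as did Adam32 with the latter (-0.040). With scaled arrays Adam29 (0.0075) and Adam7 (-0.053) turned. Leaving out 1 array turned Adam33 (-0.29 to 0.45), Adam29 (-0.28 to 0.12), Adam30 (-0.29 to 0.73), Adam7 (-0.62 to 0.47), Egfr (-0.58 to 0.42), Wdr53 (-1.25 to 0.12) and Rps27l (-0.38 to 0.40). The causes were not tested. Since each line gave 1 sample, what Erbb2 does and how the lines differ otherwise cannot be told apart.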

Other observations

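Markers of cell types other than fibroblasts and leukocytes were few. Of 8 muscle markers 4 were measured, 3 with a mean above 0 and 1 below: Myh3 had 0.85 ± 0.61 and was above 0 on each of its 3 arrays, Acta2 had 0.20 ± 0.38 and Des 0.11 ± 0.99 on 4 arrays, and Myog had -1.29 ± 1.74 on 3. Of 7 epithelial markers 4 were measured, between -0.73 and 0.86, and 1 of them, Epcam (-0.52 ± 0.33), was below 0 on every array. Of 7 endothelial markers 5 were measured, between -1.03 and 0.45, all with mixed signs. No marker was called by limma, whose count over all genes was 0, with 786 at an unadjusted p under 0.05. Genes in this paragraph were named after their values were seen.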
